A study of Mus musculus with 6 samples.

Results

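Lipases and lipid-handling genes known from lipofibroblasts were examined in ribosome-bound RNA of the postnatal mouse lung. The group held 10 of the 21603 genes in the deposited tables, chosen by name: the lipases Lipg, Lpl, Lipe, Lipa and Pnpla2, the lipid droplet protein Plin2, the fatty acid receptor Cd36, the nuclear receptor Pparg, and the fatty acid binding proteins Fabp4 and Fabp5. It was put together around Lipg because Lipg had been seen to be nearly lost in the mutants, so the values of Lipg are a description and were not tested. The series held 3 control samples and 3 samples of Yap1,Wwtr1 iPCKO mutants, all lungs of C57BL/6 mice at postnatal day 8. All 6 animals carried the Pdgfrb(BAC)-CreERT2 transgene, a single floxed Rpl22 allele that adds an HA tag to a ribosomal protein after Cre recombination (RiboTag), and had received tamoxifen in the first days after birth. Controls were heterozygous for both genes (Yap1+/-;Wwtr1+/-) and mutants carried both genes flanked by loxP sites on both chromosomes (labelled Yap1-/-;Wwtr1-/-), so neither group was wild type. Cre activity in this line follows Pdgfrb, a gene of pericytes, the mural cells that wrap capillaries, and anti-HA precipitation from whole lung lysate enriches RNA on the ribosomes of recombined cells without removing that of other cells completely.

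Lipases release fatty acids from stored or circulating lipids. Lipoprotein lipase (Lpl) and endothelial lipase (Lipg) are secreted and act at the capillary surface on lipoproteins, the former mainly on triacylglycerols and the latter mainly on phospholipids of high density lipoprotein. Adipose triglyceride lipase (Pnpla2) and hormone-sensitive lipase (Lipe) act in sequence on cytosolic lipid droplets, and lysosomal acid lipase (Lipa) hydrolyses cholesteryl esters and triacylglycerols that arrive by endocytosis. In the developing lung, lipofibroblasts are interstitial fibroblasts with lipid droplets coated by perilipin 2 (Plin2), and PPAR gamma (Pparg) is regarded as a regulator of their lipid programme. Several of these genes are also expressed by other lung cells, such as Cd36 and Fabp4 by capillary endothelium and Pparg, Fabp4 and Fabp5 by alveolar macrophages.

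The spacing of the lowest RPKM values implied 17410000 to 34670000 counted reads per control and 14240000 to 39580000 per mutant. With these depths and annotated exon lengths, each value of the 10 genes rested on roughly 52 to 11195 reads, the lowest being those of Pparg (52 to 166). Across tested genes, Pearson's r of log2 values was 0.977 to 0.992 within groups and 0.929 to 0.962 between them. Of the deleted genes, Yap1 averaged 12.4 ± 0.859 RPKM in the 3 controls and 5.61 ± 0.314 RPKM in the 3 mutants (SD), while Wwtr1 was at 60.4 ± 9.48 and 62.0 ± 1.63 RPKM, so that a lower level was measured for Yap1 only. One value per gene does not separate the recombined exons, and RNA of cells without recombination counts towards it. For protein, the paper reports strongly reduced YAP1 and WWTR1 in whole lung lysates of double mutants at a later age, against littermate controls. Those littermates were Cre-negative with both genes floxed, unlike the Cre-positive heterozygous controls here. Pericyte markers were abundant in every sample, with a sum over 8 markers of 2873 to 3682 RPKM in controls and 2642 to 3245 RPKM in mutants. Single markers differed between the groups in both directions: the ranges of Pdgfrb overlapped (1193 to 1666 RPKM over all samples), Cspg4, Kcnj8, Abcc9 and Higd1b were above the control range in mutants and Notch3, Rgs5 and Cox4i2 below it, and 5 of 8 passed the thresholds used below (all but Pdgfrb, Higd1b and Cox4i2). Also present were transcripts of other cells, such as the surfactant gene Sftpc at 338 to 467 RPKM.

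To give the upstream sequence of the genes whose levels are described, RefSeq promoter windows (GRCm38.p6, 250 bases before to 50 after the start) were matched by symbol for 6 of the 10 genes, namely Lipa, Plin2, Cd36, Pparg, Lipe and Pnpla2. Those of Lipa and Plin2 are shown because the control and mutant levels of these genes did not overlap. They lie on the minus strand, at chr19:34527475-34527724 and chr4:86670061-86670309, and end at the base before the annotated gene. Capitals mark AGGTCA, the hexamer bound by nuclear receptors such as PPAR and RXR, on either strand (TGACCT as printed here).
Lipa: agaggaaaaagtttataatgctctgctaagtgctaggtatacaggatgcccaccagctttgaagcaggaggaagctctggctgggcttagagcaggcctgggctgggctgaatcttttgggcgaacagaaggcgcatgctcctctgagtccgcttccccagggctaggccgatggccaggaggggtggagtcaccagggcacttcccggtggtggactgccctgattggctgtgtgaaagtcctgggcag
Plin2: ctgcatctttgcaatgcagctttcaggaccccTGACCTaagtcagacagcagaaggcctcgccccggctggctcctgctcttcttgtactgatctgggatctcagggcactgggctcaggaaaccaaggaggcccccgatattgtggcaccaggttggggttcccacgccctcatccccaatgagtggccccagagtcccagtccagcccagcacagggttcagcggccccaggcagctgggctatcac
The hexamer was found in the 300-base windows of 3 of the 6 genes (Plin2, Cd36 and Pparg), and in 4319 of the windows of all 27025 genes. The letters GGAATG, the core of the site bound by TEAD factors, through which YAP1 and TAZ act, were in none of the 6 windows and in 3960 of all (14.7%), counting both strands. Lipg, Lpl, Fabp4 and Fabp5 had no matched window, and 6 windows are too few to compare these shares.

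Lipg was the most abundant of the 10 transcripts in controls and nearly absent in mutants. The controls had 53.8, 51.4 and 66.8 RPKM and the mutants 1.04, 2.07 and 2.57 RPKM. All 3 mutant values therefore lay far below the lowest control, and the mutant mean of 1.89 ± 0.784 RPKM (SD, n = 3) was 3.3% of the control mean of 57.3 ± 8.31 RPKM. On the scale of log2(RPKM + 0.1), the difference between mutant and control was -4.93 (standard error 0.28), the second lowest of 12034 tested genes. The control level exceeded that of 93.8% of tested genes. In mutants the transcript was still counted, on roughly 103 to 385 reads, and its values varied more between lungs (coefficient of variation 41.5%) than in controls (14.5%). Lipg lies on chromosome 18, and none of its exonic bases overlaps another annotated gene. None of its 75-base stretches occurs in a transcript of another gene.

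**Figure D1:**
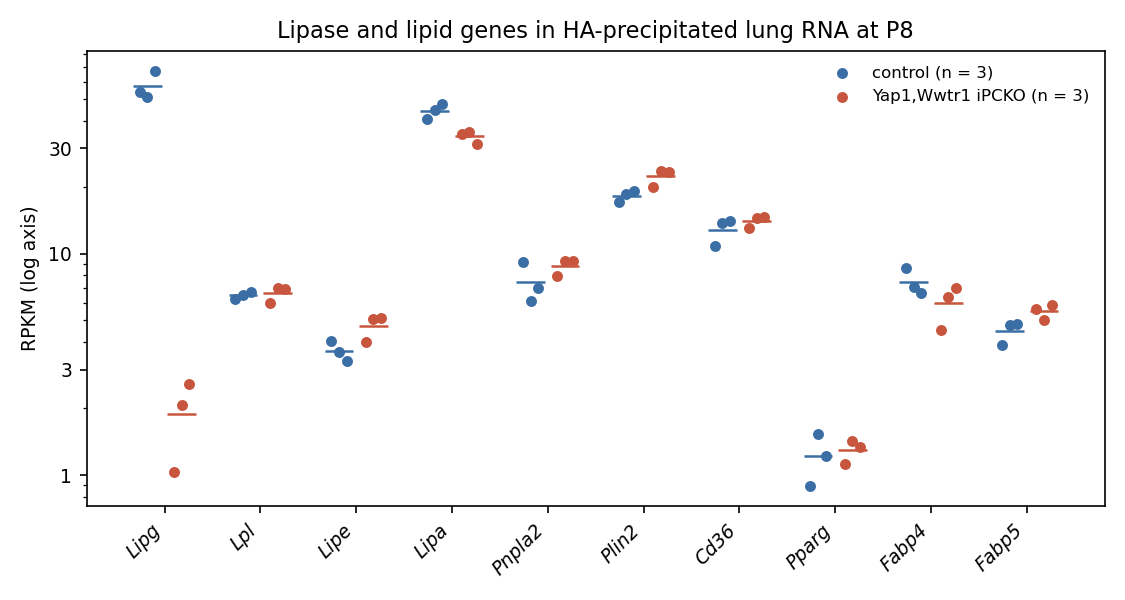
RPKM of the 10 genes in each sample, on a log axis (points, 3 control and 3 Yap1,Wwtr1 iPCKO lungs; lines, group means). Lipg drops from 51.4 to 66.8 RPKM in controls to 1.04 to 2.57 RPKM in mutants, while both groups of the other 9 genes lie close together.

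Among the genes with the profiles most like that of Lipg, by the root-mean-square difference of log2 values centred on each gene's mean over the 6 samples, were Gprc6a (0.44), Ccn5 (0.54), Gal3st2 (0.60) and Cybrd1 (0.74). Ccn5, a matricellular protein, was at 23.3 ± 1.75 RPKM in controls and 1.22 ± 0.129 RPKM in mutants, and Cybrd1, a membrane ferric reductase, at 7.98 ± 0.519 and 0.632 ± 0.213 RPKM. They were picked by likeness to the values of Lipg, so their low levels in mutants follow from the choice and were not tested. Gprc6a, Gal3st2 and Cybrd1 were below 1 RPKM in every mutant and passed the filter on low values only through the controls. In controls Lipg was well above all 4 of these genes. None of them is a lipase or a gene of the lipid lists examined here, and the level of Gal3st2 is uncertain, since 65.7% of its 75-base stretches also occur in transcripts of Gal3st2b or Gal3st2c.

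None of the other 9 genes passed the thresholds of the study, applied here to RPKM with limma instead of to read counts with DESeq2. In limma on log2(RPKM + 0.1), 0 of 9 reached both an adjusted p below 0.01 and a difference of more than 0.5 on the log2 scale in either direction, which 6.79% of all 12034 tested genes did. With limma's sample weights 1 of 9 did (Lipe, log2 difference 0.51, adjusted p = 0.00189). At an unadjusted p-value below 0.05 there were 4 of 9 (Lipa, Lipe, Plin2 and Fabp5), compared with 29.7% of all genes. The groups did not overlap for 3 of 9 (Lipa, Plin2 and Fabp5), compared with 35.5% of all genes. The 95% confidence intervals of the 9 differences all lay between -0.72 and 0.67. All 9 passed the filter on low values, as did Lipg.

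Lpl, the relative of Lipg that hydrolyses lipoprotein triacylglycerols (chromosome 8, 68880491 to 68907448), had similar levels in both groups (coordinates here and below are GRCm38, GENCODE M21). Controls had 6.28, 6.53 and 6.72 RPKM and mutants 6.01, 7.02 and 6.97 RPKM. The mutant values enclosed those of the controls, and the log2 difference of 0.03 had a 95% confidence interval from -0.19 to 0.25 (adjusted p = 0.864, limma). Gpihbp1, the endothelial protein that anchors Lpl in capillaries, was at 14.2 ± 2.34 RPKM in controls and 13.8 ± 0.83 RPKM in mutants (log2 difference -0.03, adjusted p = 0.922, limma). Angptl4, a secreted inhibitor of Lpl, was at 25.6 ± 2.43 and 31.8 ± 1.38 RPKM, with every mutant above every control, and its log2 difference of 0.32 did not pass (adjusted p = 0.0567, limma).

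Lipa, the lysosomal acid lipase (chromosome 19, 34492318 to 34527474), was the lower of the 3 genes whose groups did not overlap. It had 40.8, 44.6 and 47.6 RPKM in controls and 34.9, 35.5 and 31.6 RPKM in mutants, a mutant mean of 76.6% of the control mean. All mutants lay below the lowest control, but Lipa passed neither threshold. Its log2 difference was -0.38 (standard error 0.09, adjusted p = 0.0283, limma). With Lipg at its mutant level, Lipa became the most abundant of the 5 lipases.

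The lipases of the cytosolic lipid droplet were well below Lipa in both groups. Pnpla2 (chromosome 7, 141455198 to 141460743) had 9.19, 6.11 and 7.01 RPKM in controls and 7.93, 9.30 and 9.31 RPKM in mutants. The first control lay among the mutants, and the log2 difference of 0.26 (95% confidence interval -0.08 to 0.61) did not pass (adjusted p = 0.279, limma). Lipe (chromosome 7, 25379527 to 25398710) had 4.02, 3.59 and 3.29 RPKM in controls and 3.99, 5.07 and 5.14 RPKM in mutants. The second mutant and the last exceeded all controls and the first did not, for a log2 difference of 0.37 (95% confidence interval 0.07 to 0.67, adjusted p = 0.101, limma). Of the exonic bases of Lipe, 15.6% overlap an annotated gene on the opposite strand, and how the counting treated strand is not given in the sources used here. Their partners Abhd5, the activator of Pnpla2, and G0s2, its inhibitor, were at 12.3 ± 0.957 and 90.2 ± 18.4 RPKM in controls and at 11.3 ± 0.764 and 104 ± 29.1 RPKM in mutants, with overlapping groups.

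Together the 5 lipases summed to 112 to 131 RPKM in controls and 53.8 to 59.0 RPKM in mutants. Lipg made up 47.9% ± 2.61 (SD, n = 3) of that sum in controls and 3.35% ± 1.36 in mutants. The summed level of the 4 other lipases was 61.9 ± 2.37 RPKM in controls and 54.2 ± 2.32 RPKM in mutants, most of it Lipa in both. Most of the difference in the total was that of Lipg. The group was chosen around the fall of Lipg, so the change in total and share follows from that choice and was not tested.

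**Figure D2:**
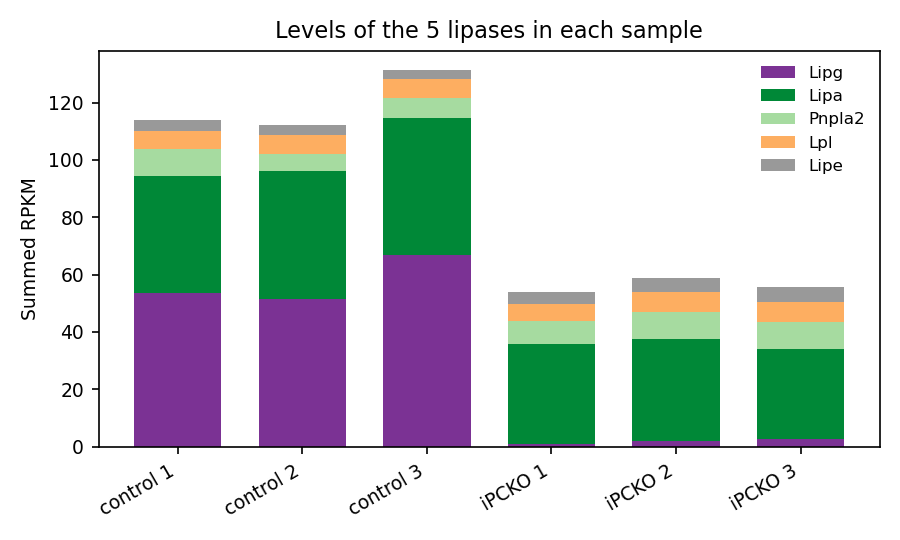
Summed RPKM of the 5 lipases in each of the 3 control and 3 iPCKO samples, as stacked bars from 0. The Lipg segment is between 51.4 and 66.8 RPKM in controls and no more than 2.57 RPKM in mutants, and the other 4 lipases sum to between 52.8 and 64.6 RPKM in all samples.

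Among the droplet, uptake and binding genes, Plin2 (chromosome 4, 86648386 to 86670060) had 17.1, 18.7 and 19.3 RPKM in controls and 20.1, 23.8 and 23.4 RPKM in mutants. Each mutant was above each control, though the highest control and the lowest mutant were close, and the log2 difference of 0.29 (standard error 0.10) did not pass (adjusted p = 0.0828, limma). Cd36, a receptor for long-chain fatty acids and oxidised lipoproteins (chromosome 5, 17781690 to 17888801), had 10.8, 13.8 and 14.0 RPKM in controls and 13.1, 14.5 and 14.7 RPKM in mutants. Its groups overlapped, with a log2 difference of 0.14 (95% confidence interval -0.13 to 0.40, adjusted p = 0.482, limma). Pparg (chromosome 6, 115360951 to 115490399) was the lowest of the 10 genes in both groups, at 0.895, 1.53 and 1.22 RPKM in controls and 1.12, 1.42 and 1.34 RPKM in mutants. The mutant values lay within the range of the controls, and the interval of the log2 difference was wide (-0.38 to 0.60, adjusted p = 0.783, limma). Its control level exceeded that of 3.7% of tested genes.

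The fatty acid binding proteins carry fatty acids in the cytosol, and their 2 members here went in different directions without passing. Fabp4 (chromosome 3, 10204088 to 10208576) had 8.60, 7.11 and 6.65 RPKM in controls and 4.52, 6.42 and 7.05 RPKM in mutants, a log2 difference of -0.33 (95% confidence interval -0.72 to 0.06, adjusted p = 0.244, limma). The first mutant was the lowest of the 6 samples and the last lay among the controls. Fabp5 (chromosome 3, 10012548 to 10016607) had 3.88, 4.76 and 4.81 RPKM in controls and 5.64, 5.04 and 5.86 RPKM in mutants, a log2 difference of 0.30 (95% confidence interval 0.03 to 0.56, adjusted p = 0.132, limma). All mutants were above all controls, by a narrow gap. Of the 75-base stretches of Fabp5, 3.03% occur in annotated transcripts of Gm14328 and Gm6166, so part of its reads may be shared. The summed level of the 5 genes Plin2, Cd36, Pparg, Fabp4 and Fabp5 was 44.4 ± 2.67 RPKM in the 3 controls and 49.4 ± 4.25 RPKM in the 3 mutants (SD).

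**Figure D3:**
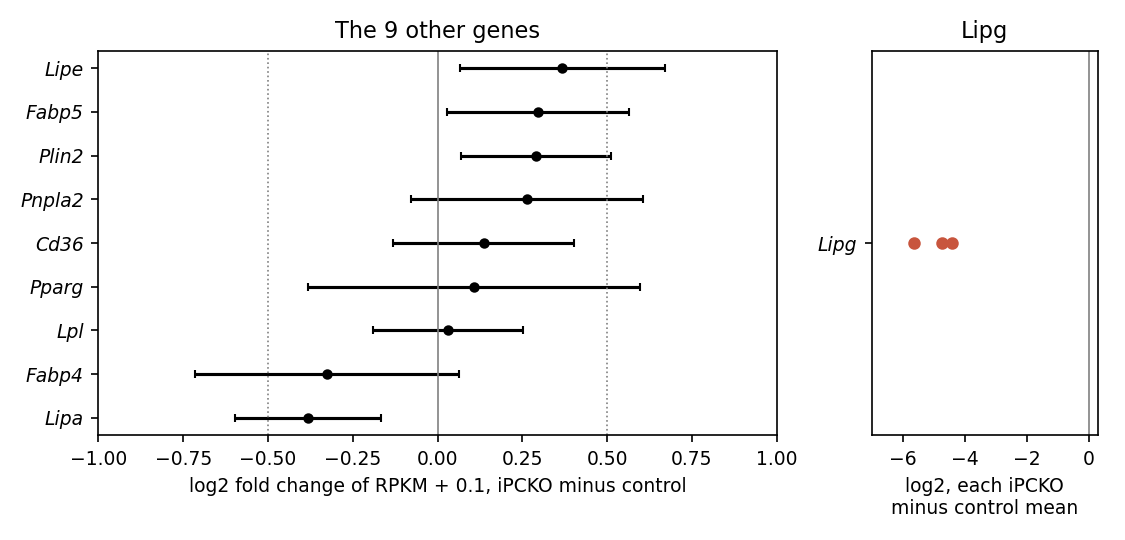
Log2 fold change of RPKM + 0.1, iPCKO minus control, of the 9 genes other than Lipg (left; points with 95% confidence intervals from limma, dotted lines at the required size of 0.5) and the 3 mutant values of Lipg as differences from the control mean (right, on its own axis). None of the 9 estimates reaches 0.5 in either direction, and the 3 Lipg points lie below -4.

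In order of level, controls ran from Lipg through Lipa, Plin2 and Cd36 to Fabp4, Pnpla2 and Lpl, followed by Fabp5, Lipe and Pparg. The ranges of Fabp4, Pnpla2 and Lpl overlapped, as did those of Fabp5 and Lipe, so these neighbours were not separated by the spread between lungs, whereas the first 4 were. In mutants Lipg had moved from rank 1 to rank 9, where its range overlapped that of Pparg, and the order of the first 3 others was the same. RPKM is per length of exon, and the exon lengths used by the authors are not given in the sources used here, so small differences in level between genes are uncertain.

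To place these genes in lipid metabolism, 133 other genes in 10 lists were followed, of which 106 passed the filter on low values. In limma, 7 were higher and 3 lower in mutants at the same thresholds, compared with 4.11% higher and 2.68% lower among all tested genes. One of the 7, Pla1a, passed the filter only through the mutants, and with a filter of 1 RPKM in all 6 samples 6 were higher and 3 lower. The median log2 fold change over the 106 genes was 0.11, against 0.00 over all tested genes. No gene passed among the 8 tested partners of intravascular lipolysis, 6 lipid droplet proteins, 13 regulators of the PPAR axis, 11 genes of mitochondrial fatty acid oxidation and 12 genes of lysosomal lipid handling. At an unadjusted p-value below 0.05 (limma) these 5 lists had 2, 1, 2, 1 and 4 genes, and all 10 lists together 35 of 106, against 29.7% of all tested genes.

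Of 11 other lipases tested, Mgll and Pla1a were past both thresholds, both higher in mutants. Mgll, monoacylglycerol lipase, which takes the last step of triacylglycerol breakdown after Pnpla2 and Lipe, had 15.9, 14.8 and 14.0 RPKM in controls and 34.8, 32.1 and 29.7 RPKM in mutants. The lowest mutant was well above the highest control, and the log2 difference was 1.10 with a standard error of 0.09 (limma, adjusted p = 0.000186). Pla1a, a secreted phospholipase specific for phosphatidylserine and a relative of Lipg, was at 0.815 ± 0.0868 RPKM in controls and 2.31 ± 0.414 RPKM in mutants (SD, n = 3), which is 1.38 on the log2 scale (adjusted p = 0.00151, limma). It was below 1 RPKM in all 3 controls and entered the test only because of its mutant values, so its call rests partly on the filter. Leaving out iPCKO 2 took it to an adjusted p of 0.0103.

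Of the fatty acid binding, transport and activation list (11 tested), Acsl1 and Fabp3 were higher and Fabp7 was lower. Acsl1, which activates long-chain fatty acids to acyl-CoA, had 3.72, 3.55 and 3.87 RPKM in controls and 6.64, 6.55 and 8.25 RPKM in mutants, which is 0.92 on the log2 scale (adjusted p = 0.00123, limma). Of its exonic bases, 9.9% overlap another annotated gene. Fabp3, the heart type binding protein, rose from 1.90 ± 0.591 to 4.49 ± 1.11 RPKM (limma, log2 difference 1.21, adjusted p = 0.00982), and Fabp7, the brain type, fell from 12.1 ± 2.23 to 6.64 ± 0.911 RPKM (limma, log2 difference -0.85, adjusted p = 0.00606). Both calls were near the threshold. That of Fabp3 was lost without control 1, control 3 or any 1 of the 3 mutants (adjusted p 0.0123 to 0.0398, limma), and that of Fabp7 without control 1, control 3, iPCKO 2 or iPCKO 3 (0.0139 to 0.025). Of the 75-base stretches of Fabp3, 26.0% occur in transcripts of other annotated genes, among them a pseudogene, so its level is uncertain.

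In the synthesis lists, Agpat5, an acyltransferase that makes phosphatidic acid, was the only 1 of 11 tested genes of triacylglycerol synthesis to pass, with 5.28, 5.77 and 7.71 RPKM in controls and 2.90, 2.49 and 2.65 RPKM in mutants (limma, log2 difference -1.18, adjusted p = 0.00134). Its exonic bases overlap another annotated gene over 18.9%. Elovl6, an elongase of saturated fatty acids, was the only 1 of 12 tested genes of fatty acid synthesis to pass. It rose from 1.91 ± 0.192 to 4.07 ± 0.819 RPKM (limma, log2 difference 1.04, adjusted p = 0.00398), a call lost without any 1 control, iPCKO 1 or iPCKO 3 (adjusted p 0.0102 to 0.0167).

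Genes used elsewhere as markers of lipofibroblasts or alveolar fibroblasts did not move as a block. Of 11 tested, Npnt, which encodes the matrix protein nephronectin, fell from 61.8 ± 3.74 to 27.6 ± 3.01 RPKM (SD, n = 3; limma, log2 difference -1.16, adjusted p = 0.000262). Inmt, a methyltransferase, rose from 3.19 ± 0.444 to 6.04 ± 0.311 RPKM (limma, log2 difference 0.91, adjusted p = 0.0017), and Limch1, an actomyosin regulator, from 55.3 ± 3.38 to 86.3 ± 7.67 RPKM (limma, log2 difference 0.64, adjusted p = 0.00372). The call of Limch1 was lost without any 1 control, iPCKO 2 or iPCKO 3 (adjusted p 0.0127 to 0.0214). None of these 3 proteins is a lipase or a carrier of fatty acids. Tcf21, a transcription factor of the lipofibroblast lineage, had 46.2, 58.3 and 53.2 RPKM in controls and 37.0, 39.5 and 31.3 RPKM in mutants, with no overlap, and missed the threshold (log2 difference -0.55, adjusted p = 0.018, limma). Lepr fell from 66.2 ± 5.23 to 43.4 ± 7.61 RPKM, also with no overlap and without passing (log2 difference -0.62, adjusted p = 0.0147, limma). Gyg and Fgfr4 were below the control range in every mutant too, with smaller differences that did not pass. Pdgfra was at 36.0 ± 7.38 and 39.3 ± 6.40 RPKM, with overlapping groups, as had Fgf10, Pth1r and Wnt2. The median log2 fold change of the list was -0.18. At an unadjusted p below 0.05 (limma) there were 6 of 11, against 29.7% of all tested genes.

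**Figure D4:**
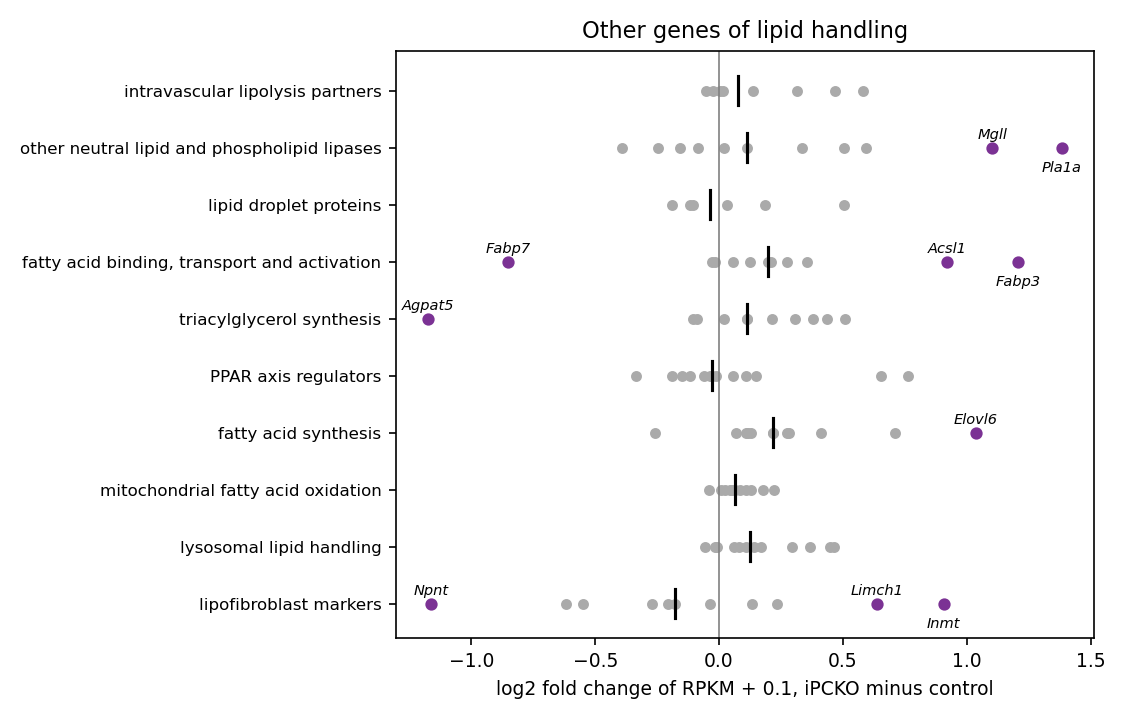
Log2 fold change of RPKM + 0.1, iPCKO minus control, of 106 tested lipid genes in 10 lists (points; purple and named, the 10 genes past both thresholds; black bars, list medians). Of these 10 genes 7 lie to the right of 0 and 3 to the left, and 5 lists hold none.

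All 10 of these calls depended on the filter on low values: with every gene of the tables in the fit, 0 of them passed, and their adjusted p-values ranged from 0.0103 for Mgll to 0.102 for Fabp3 (limma), with unchanged fold changes. Without control 3, iPCKO 2 or iPCKO 3, the samples whose removal cost most, 6 lipid genes passed.

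Transcripts of other cells that express these genes were measured in the same samples. Endothelial markers summed to 207 to 221 RPKM in controls and 206 to 219 RPKM in mutants (10 markers), a ratio of means of 0.993, with Kdr and Vwf higher in mutants and 3 others below the control range. Fibroblast markers summed to 203 to 250 RPKM in controls and 225 to 298 RPKM in mutants, and 0 of 6 passed the thresholds. Every mutant was above every control for 3 of them (Col13a1, Dpt and Pi16) and below for 1 (Tcf21). Adipocyte markers were close to 0, with 0 of 7 reaching 1 RPKM in any sample and Adipoq at 0.647 to 0.882 RPKM in controls and 0.0342 to 0.548 RPKM in mutants. Markers of alveolar macrophages summed to 6.62 to 10.6 RPKM in controls and 19.5 to 42.5 RPKM in mutants, with every mutant above every control for 6 of 7, and other macrophage markers to 18.9 to 28.0 and 31.3 to 59.5 RPKM, with 8 of 9 apart in the same way. Neutrophil markers summed to 83.4 to 122 RPKM in controls and 440 to 4792 RPKM in mutants, all 10 apart. Type II alveolar epithelial markers, most of whose sum was Sftpc, summed to 469 to 519 and 585 to 652 RPKM, with 4 of 7 apart and Abca3, Lamp3 and Epcam overlapping. Of all tested genes, 18.3% had every mutant above every control and 17.1% every mutant below. The thresholds were passed by 2 of 10 endothelial (Kdr and Vwf), 2 of 7 alveolar macrophage and 0 of 9 other macrophage markers. They were also passed by 6 of 10 neutrophil and 2 of 7 type II markers, compared with 6.79% of all tested genes. Siglecf, Ear1 and Fcgr1 are in these counts but did not pass the filter on low values and were not tested. Marco and Mmp9 were below 1 RPKM in every control and passed that filter only through the mutants, so their calls rest partly on it. These immune and epithelial sums moved in the same direction as Plin2, Fabp5, Mgll, Acsl1 and Pla1a and opposite to Lipg, Lipa and Agpat5, and their part in the values of these genes was not tested. In bulk RNA of this kind, fewer cells of a type and less RNA per cell cannot be told apart.

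**Figure D5:**
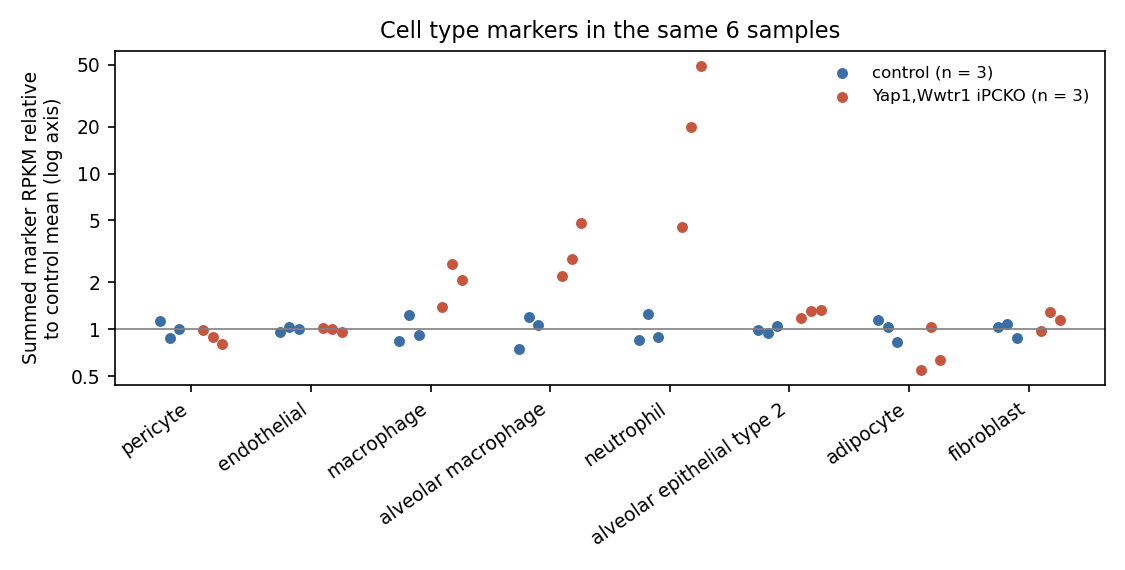
Summed RPKM of 8 lists of cell type markers in each sample, relative to the control mean of the list, on a log axis (points, 3 control and 3 iPCKO lungs). Endothelial sums are alike in both groups, while neutrophil sums in mutants range from 440 to 4792 RPKM against 83.4 to 122 RPKM in controls, and alveolar macrophage sums from 19.5 to 42.5 RPKM against 6.62 to 10.6 RPKM.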

How the data were processed

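The authors made stranded libraries from anti-HA precipitated lung RNA, aligned read pairs with TopHat (mm10, which is GRCm38), obtained gene counts with HTSeq 0.6.1 and deposited 1 table of RPKM per sample (21603 genes). The exon lengths, the total used for scaling and the strand setting of the counting are not given in the sources used here. Symbols for 21452 genes and coordinates came from GENCODE M21, on the same assembly. The members and gene lists were chosen with earlier results of these data known. Groups follow the sample titles, and nothing says which mice shared a litter, so p-values measure the spread between these samples. The 12034 genes that reached 1 RPKM in 3 or more samples were tested as log2(RPKM + 0.1) with limma 3.58.1 in R 4.3.3, using an intensity trend, and p-values were adjusted over all of them (Benjamini-Hochberg). The study's thresholds were kept: adjusted p below 0.01 with a difference above 0.5 on the log2 scale in either direction. Fold changes on this scale understate the change of low genes. The script was tested on simulated data. Named lipid genes were those of the lists past both thresholds with groups apart, 5 genes most like Lipg, the deleted genes and markers. The further lipid genes Gpihbp1, Angptl4, Abhd5, G0s2, Tcf21, Lepr, Gyg, Fgfr4, Pdgfra, Fgf10, Pth1r and Wnt2 were chosen after their values were seen. One of the 5 genes most like Lipg is not reported here. Depth was read from genes with 1 annotated transcript, where 75.1% to 77.1% of values up to 10 reads came out whole (tolerance 0.02 reads). Sequence uniqueness was checked with 75-base stretches of GENCODE transcripts.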

Additional observations from a re-analysis of the deposited data

How the results depend on the processing

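The count of genes past both thresholds among the 9 genes other than Lipg was 0 with each sample left out. It was 0 in every other alternative too, except limma's sample weights, which gave 1 (Lipe, log2 fold change 0.51, adjusted p = 0.00189). Lipg kept its direction throughout, with log2 differences from -5.19 to -4.36. With a sample left out, Lpl ranged from -0.01 (without iPCKO 2) through 0.00 (without iPCKO 3) to 0.10, and Pparg from -0.08 (without control 1) to 0.28, so neither kept its sign. Of all genes 817 passed in the main setting, and 95 without a filter on low values, 1590 with sample weights, 1313 at an adjusted p below 0.05, 411 at an absolute log2 fold change above 1, and 382 to 899 with a sample left out. Of the genes in the lipid lists 10 passed in the main setting, and under the same alternatives 0, 17, 17, 6 and 6 to 9. Other pseudocounts, scalings, the filter on all 6 samples and no intensity trend left both counts within 1.5 times. With the replicate block there were 922 genes in all, 12 lipid genes of the lists and 0 of the 9. Samples with the same number correlated with r of 0.0225 to 0.238 in their deviations and others with -0.298 to 0.273, so the numbers were not taken as pairs. The count of windows with the nuclear receptor hexamer was 3 of 6 in the shorter window too. Pparg, with 52 to 166 reads per sample, is the value most limited by depth.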
